A study of Homo sapiens with 12 samples.

Results

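The mitochondrial respiratory chain subunits encoded in the nucleus were followed across 4 treatment groups of HT1080 cells, a human fibrosarcoma line. Genes were taken by symbol: the NDUFA, NDUFB, NDUFC, NDUFS and NDUFV subunits of complex I, SDHA to SDHD of complex II, the UQCR genes of complex III, and the COX4 to COX8 genes of complex IV. This gave 68 of the 19293 genes in the table, 36 for complex I, 4 for complex II, 9 for complex III and 19 for complex IV. NDUFA4 and NDUFA4L2 were placed with complex IV, where NDUFA4 protein is known to reside despite its name. The symbol pattern itself uses no measured value, although it was chosen with earlier results of these data known. The pattern leaves out NDUFAB1 of complex I and CYC1 of complex III, which are described with the related genes.

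Cells at passage 15 to 20 were left untreated, given interferon gamma (IFNγ, 10 ng/ml), irradiated (20 Gy) or given both, and were harvested after 24 h. Each group had 3 libraries, labelled Untreated, IFNG, RT and combo with numbers 1 to 3. All groups were the same line with no engineered allele. Nothing in the labels says whether the libraries of a group derive from separate dishes, and the spread behind each p-value may therefore be technical. The purpose given for the series was to follow the transcriptome under radiotherapy and IFNγ, singly and combined.

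The respiratory chain carries electrons from NADH and succinate to oxygen. Complex I oxidises NADH, complex II (succinate dehydrogenase) oxidises succinate and is also an enzyme of the tricarboxylic acid (TCA) cycle, complex III passes electrons from ubiquinol to cytochrome c, and complex IV hands them to oxygen. Complexes I, III and IV combine nuclear subunits with core subunits encoded in mitochondrial DNA, whereas complex II is built from nuclear genes alone. Many nuclear respiratory genes are known targets of the transcription factor NRF1 and of ETS family factors such as GABP.

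Promoter letters are shown for 6 subunits on which the results below turn, of which 4 hold an NRF1 core and 2 hold none: SDHA, the subunit with the largest change, its partner SDHD, which passed no test, NDUFA9, the subunit most raised by IFNγ, UQCRFS1, which was called lower in all 3 treated groups, and NDUFV3 and NDUFA8, which were higher after radiation. Each is the 250 bases before the RefSeq start (GRCh38.p14), read 5′ to 3′ on the gene's strand, with matches to an NRF1 core on either strand in capitals (GCGCA, 1 base of any kind, then GCGC). SDHA lies on the plus strand at chr5:218070-218319, SDHD on the plus strand at chr11:112086623-112086872, NDUFA9 on the plus strand at chr12:4648864-4649113, UQCRFS1 on the minus strand at chr19:29213152-29213401, NDUFV3 on the plus strand at chr21:42893059-42893308 and NDUFA8 on the minus strand at chr9:122159780-122160029.
SDHA: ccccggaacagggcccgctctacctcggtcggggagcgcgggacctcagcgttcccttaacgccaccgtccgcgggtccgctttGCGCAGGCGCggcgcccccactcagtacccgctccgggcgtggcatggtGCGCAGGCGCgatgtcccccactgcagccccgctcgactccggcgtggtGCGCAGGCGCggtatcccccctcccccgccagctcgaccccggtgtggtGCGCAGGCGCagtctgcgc
SDHD: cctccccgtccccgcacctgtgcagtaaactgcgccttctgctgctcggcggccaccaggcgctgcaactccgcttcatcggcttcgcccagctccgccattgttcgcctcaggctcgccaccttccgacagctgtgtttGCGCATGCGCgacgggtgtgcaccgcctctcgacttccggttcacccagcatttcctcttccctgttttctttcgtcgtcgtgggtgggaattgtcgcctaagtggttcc
NDUFA9: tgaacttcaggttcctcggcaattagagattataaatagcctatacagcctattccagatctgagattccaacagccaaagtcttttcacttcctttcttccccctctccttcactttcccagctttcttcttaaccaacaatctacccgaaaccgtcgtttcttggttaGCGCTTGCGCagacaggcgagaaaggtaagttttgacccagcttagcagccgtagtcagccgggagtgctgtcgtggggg
UQCRFS1: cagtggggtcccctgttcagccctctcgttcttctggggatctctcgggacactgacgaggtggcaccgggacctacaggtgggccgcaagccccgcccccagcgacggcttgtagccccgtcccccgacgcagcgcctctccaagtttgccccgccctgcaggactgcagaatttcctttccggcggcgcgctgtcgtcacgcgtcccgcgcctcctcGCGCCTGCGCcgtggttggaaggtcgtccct
NDUFV3: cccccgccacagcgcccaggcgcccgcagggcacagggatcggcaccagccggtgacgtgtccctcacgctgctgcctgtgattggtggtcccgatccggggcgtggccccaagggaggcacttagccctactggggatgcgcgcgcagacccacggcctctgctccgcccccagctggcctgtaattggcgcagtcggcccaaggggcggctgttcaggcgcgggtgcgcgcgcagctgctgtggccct
NDUFA8: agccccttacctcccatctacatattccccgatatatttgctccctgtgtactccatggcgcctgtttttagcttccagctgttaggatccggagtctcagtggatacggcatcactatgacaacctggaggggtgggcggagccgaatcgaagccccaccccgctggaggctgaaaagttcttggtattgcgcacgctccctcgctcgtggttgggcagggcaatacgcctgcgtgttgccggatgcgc
SDHA held 4 cores, beginning 166, 117, 68 and 19 bases before the start and so spaced by 49 bases. SDHD held 1, beginning 110 bases before the start, NDUFA9 1 at 80 bases and UQCRFS1 1 at 31 bases, whereas NDUFV3 and NDUFA8 held 0. None of these cores overlapped a match to the ETS letters CCGGAAG. The 6 were picked by hand from the results, so their share with a core does not stand for the subunits. Of the 68 subunit genes 55 had a RefSeq promoter entry, and SDHC was among those without. An NRF1 core stood in at least 1 entry of 11 of the 55 (20.0%), against 6.20% of all 27305 genes in that table. Those are more genes than the 19293 counted here. CCGGAAG on either strand stood in 14 of 55 (25.5%), against 10.2% of all genes. Letters tied to interferon responses were not more common: TTCNNNGAA (a GAS-type motif) stood in 4 of 55 (7.27%), against 8.09% of all genes, and TTTC, 2 bases of any kind and TTTC (an ISRE-type core) in 0 of 55, against 3.71%. A match is a description of letters, and binding was not measured.

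The 12 libraries held between 9675126 and 11010656 counts, and the subunit genes took between 0.431% and 0.493% of them. A filter on low counts left 12160 genes, 61 of them subunits: all 36 of complex I, 4 of complex II, 9 of complex III and 12 of 19 of complex IV. The tested subunits averaged between 121 and 2359 counts per library (median 687). Of the mesenchymal markers of the labelled cell type, VIM, FN1, CD44 and SPARC averaged between 664 and 5489.5 CPM (counts per 1000000 counts of the library) in every group, whereas NT5E and S100A4 averaged below 2 CPM in every group. Epithelial CDH1 and EPCAM, endothelial CDH5 and striated muscle MYOG were at or near 0. Of the 16 epithelial, endothelial, immune and striated muscle markers only CLDN4 was counted enough to be tested, and it stood at 1.85 ± 0.384 CPM untreated (mean ± SD, n = 3) and 3.22 ± 0.884 after radiation (0.78 ± 0.26). Its part in the changes of the subunits was not tested. Marker genes moved with the labels, with GBP1 higher after IFNγ by 5.58 ± 0.13 and CDKN1A higher after radiation by 2.45 ± 0.037 (log2 fold change ± SE). Library Untreated 1 stood 0.05 above its group mean over the 61 subunits (median log2) and IFNG 3 stood 0.05 below, and the same libraries deviated alike in ribosomal protein genes (0.05 and -0.05). These deviations went with exon length: the median was 0.05 in Untreated 1 and -0.05 in IFNG 3 over the 300 tested genes of up to 1000 bases, and -0.02 and 0.02 over the 5751 genes of the longest class. The part of length or RNA quality in the results was not tested. Counts of called subunits are also given without both libraries.

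Levels are given as CPM of the library total after scaling by TMM (trimmed mean of M-values, which sets the bulk of genes equal between libraries). In untreated cells COX4I1, an obligatory nuclear subunit of complex IV, was the most counted subunit at 223 ± 3.69 CPM (mean ± SD, n = 3), followed by UQCRH, the hinge protein of complex III, at 164 ± 3.05. The lowest tested subunits were UQCRHL, an UQCRH-like copy, at 11.9 ± 1.38 and NDUFA3 at 14.5 ± 0.402. Between genes only levels per length can be compared. Per kb of median transcript length, the median untreated level was 57.9 CPM over complex I, 110 over complex II, 70.2 over complex III and 147 over complex IV. The highest were COX4I1 at 281 CPM per kb and UQCRH at 272. These ranks depend on the length used: SDHC stood at 193 CPM per kb of median transcript and at 6.54 CPM per kb of merged exons.

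The 7 subunits left out of the tests were alternative isoforms of complex IV, most of them known from particular tissues. COX4I2, the lung isoform, COX6A2, the heart and muscle isoform, and COX7B2 and COX8C had 0 counts in every library. COX6B2, known from testis, had 1 to 6 counts per library (39 in all), COX7A1, the heart and muscle partner of COX7A2, 0 to 6 (35 in all), and NDUFA4L2, a hypoxia-induced relative of NDUFA4, 2 to 14 (81 in all). For complex IV subunits with such alternatives, counts thus lay almost wholly in the ubiquitous isoforms COX4I1, COX6A1, COX6B1, COX7A2, COX7B and COX8A. This held under all 4 conditions.

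Cells of each culture were measured in bulk, so fewer cells with a transcript and less RNA per cell cannot be told apart. Changes among the subunits were small in every comparison: no fitted log2 fold change exceeded 0.5 in size. Genes were called by edgeR's quasi-likelihood test at an adjusted p (Benjamini-Hochberg over 12160 genes) under 0.05. Radiation against untreated called 22 of 61 subunits (36.1%), 17 higher and 5 lower, against 56.1% of all genes tested (27.9% higher, 28.2% lower). The median subunit stood at 0.07 (log2) and the median gene at 0.01. Combined treatment called 17 (27.9%), 15 higher and 2 lower, against 62.1% (30.9% higher, 31.2% lower). IFNγ called 6 (9.84%), 2 higher and 4 lower, against 29.1% (15.0% higher, 14.1% lower). All 3 comparisons share the untreated libraries. The 95% interval of the log2 change lay within ±0.5 for 61 of 61 subunits after IFNγ, for 61 after radiation and for 60 after both, the exception being SDHA.

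**Figure D1:**
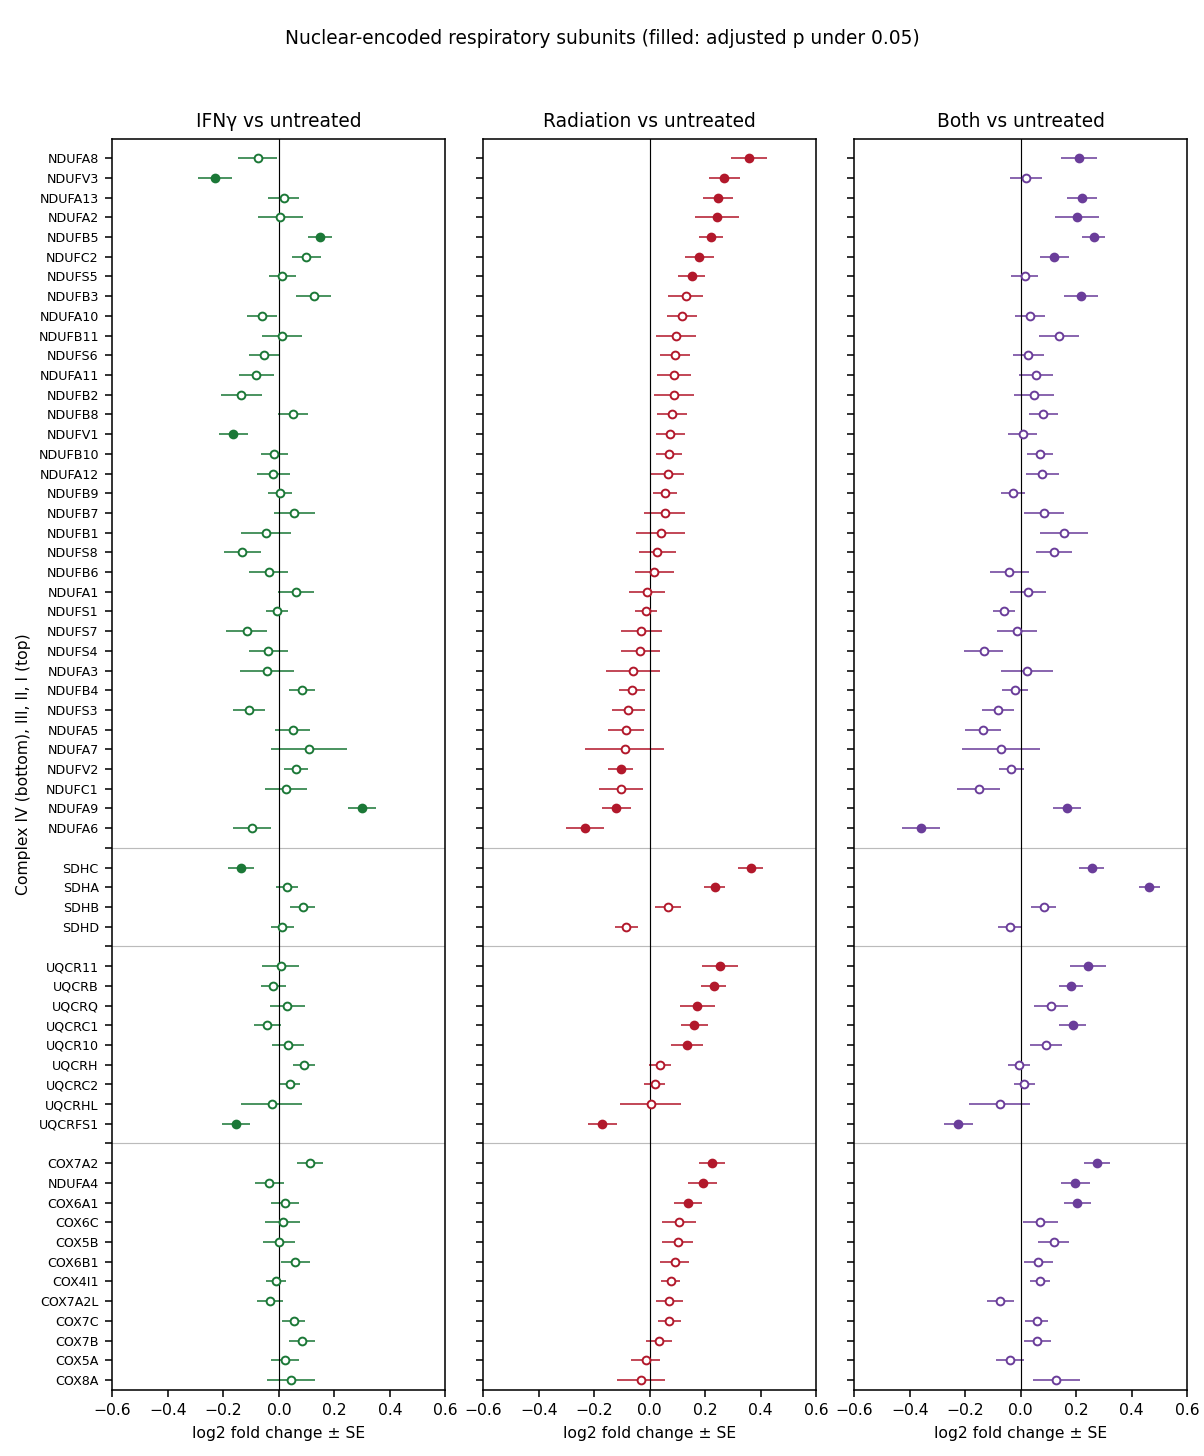
Log2 fold change against untreated cells (x axis, ± SE) of 60 of the 61 tested subunits, grouped by complex and ordered within each by the radiation change, with filled points called at an adjusted p under 0.05. Most points sit within 0.2 of 0, SDHC and NDUFA8 lead after radiation (0.36 each), and SDHA leads after both treatments (0.46).

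Where IFNγ was compared within irradiated cells (combo against RT), 6 of 61 subunits were called, 3 higher and 3 lower, against 26.9% of all genes (14.5% higher, 12.4% lower). Radiation within IFNγ-treated cells (combo against IFNG) called 24 (39.3%), 19 higher and 5 lower, against 60.7% (30.3% higher, 30.4% lower). Radiation called 15 subunits in the same direction in both backgrounds, 13 higher and 2 lower, against 46.9% of all genes called the same way in both. For IFNγ these were NDUFA9, higher in both, and NDUFV3, lower in both, against 16.9% of all genes. Of the 61 subunits 28 (45.9%) were called in none of these 5 comparisons, against 19.8% of all genes. The share of subunits called was thus below that of all genes in each comparison. After both treatments the median SE was 0.05 over the subunits and 0.07 over all genes. The median size of the log2 change was 0.08 and 0.26 in the same order. Depth differs between genes, and its part in the lower share was not tested.

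The count and split of the IFNγ calls depended on 2 libraries and on scaling. Without Untreated 1 and IFNG 3 together, IFNγ called 12 subunits, 10 higher and 2 lower, against 25.4% of all genes, and combined treatment called 28, 25 higher and 3 lower, against 60.3%. Radiation then called 27, 23 higher and 4 lower, against 54.5%, and combo against IFNG 18, 13 higher and 5 lower, against 58.3%. Scaling by library totals gave 1 higher and 7 lower with IFNγ, against 32.4% of all genes called, and moved the median of all genes to -0.06. Under that scaling combo against RT gave 3 higher and 6 lower, against 30.2% of all genes called, and combo against IFNG 24 higher and 2 lower, against 60.3%. No direction of the subunits as a group is therefore given for IFNγ.

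In complex II SDHA and SDHC were called after radiation and after both treatments, and SDHB and SDHD were not. SDHC and NDUFA8 of complex I had the largest log2 changes of any subunit after radiation, and SDHA the largest after both. SDHA is the flavoprotein that binds succinate, SDHB carries the iron-sulfur clusters, and SDHC and SDHD anchor the enzyme in the inner membrane and form its quinone site. After radiation 2 of 4 subunits were higher and 0 lower, and after both treatments again 2 and 0, against 27.9% of all genes higher after radiation and 30.9% after both.

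SDHA measured 153, 152 and 148 CPM in the untreated libraries, 157, 154 and 151 with IFNγ, 177, 170.4 and 184 after radiation and 209, 199 and 215 after both. All irradiated libraries lay above all unirradiated ones, all libraries given both treatments lay above those given radiation alone, and the IFNγ and untreated libraries overlapped. SDHA was higher by 0.23 ± 0.039 after radiation (edgeR adjusted p = 7.64e-07) and by 0.46 ± 0.038 after both (adjusted p = 5.48e-16). IFNγ alone gave 0.03 ± 0.039 (adjusted p = 0.625), whereas IFNγ in irradiated cells gave 0.23 ± 0.037 (adjusted p = 1.57e-06). The difference between those IFNγ effects was 0.20 ± 0.054 (edgeR interaction, adjusted p = 0.0307). SDHA was the only one of the 61 subunits called in that interaction test, against 2.38% of all genes (1.38% higher, 0.995% lower). At an unadjusted p under 0.05 were 6 of the 61 subunits and 1788 of all 12160 genes. DESeq2 called 0, against 1.95% of all genes. The adjusted p rose above 0.05 without IFNG 2, IFNG 3, RT 1, RT 2, combo 1 or combo 3, reaching at most 0.137 over all alternatives while the value stayed between 0.17 and 0.23.

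SDHC measured 89.2, 90.3 and 86.7 CPM untreated, 83.4, 76.5 and 82.8 with IFNγ, 112, 117 and 114 after radiation and 102, 109.6 and 106 after both. The 4 groups did not overlap, with IFNγ lowest, then untreated, both, and radiation highest. Radiation raised SDHC by 0.36 ± 0.045 (adjusted p = 5.38e-10), and by 0.39 ± 0.046 in IFNγ-treated cells (adjusted p = 1.08e-10). IFNγ alone gave -0.13 ± 0.047 (adjusted p = 0.024), a call lost in DESeq2, with no filter on low counts, and without Untreated 2 or IFNG 2. In irradiated cells the IFNγ difference was -0.11 ± 0.044 (adjusted p = 0.0588). SDHC and SDHA thus stood in opposite order between radiation alone and both treatments, although the SDHC difference did not pass the test.

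SDHB measured 94.2, 94.6 and 90.1 CPM untreated, 97.0, 99.5 and 99.4 with IFNγ, 96.2, 94.6 and 101 after radiation and 98.0, 105 and 92.7 after both. SDHD measured 121, 118 and 121 CPM untreated, 120.5, 122 and 121 with IFNγ, 109, 116 and 114 after radiation and 121, 117 and 113 after both. Neither was called in any comparison. After radiation the 95% interval of the log2 change was -0.03 to 0.16 for SDHB and -0.17 to -0.00 for SDHD, and after both -0.01 to 0.18 and -0.12 to 0.04. The ratio of SDHA to SDHB counts was 1.62 ± 0.0195 (SD, n = 3) in untreated cells, 1.56 ± 0.0490 with IFNγ, 1.82 ± 0.0203 after radiation and 2.12 ± 0.210 after both. The ratio of SDHC to SDHD was 0.739 ± 0.0256, 0.668 ± 0.0353, 1.01 ± 0.0145 and 0.907 ± 0.0528 in the same order. A ratio between transcripts shows unequal change and says nothing of the assembled enzyme. GENCODE v29 names 3 SDHA, 4 SDHC and 3 SDHD pseudogenes, and SDHC exons overlap CFAP126 on the opposite strand. SDHD exons overlap the model AP002884.3 on the same strand and TIMM8B on the opposite one. Counts of SDHA, SDHC and SDHD are uncertain to that extent.

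**Figure D2:**
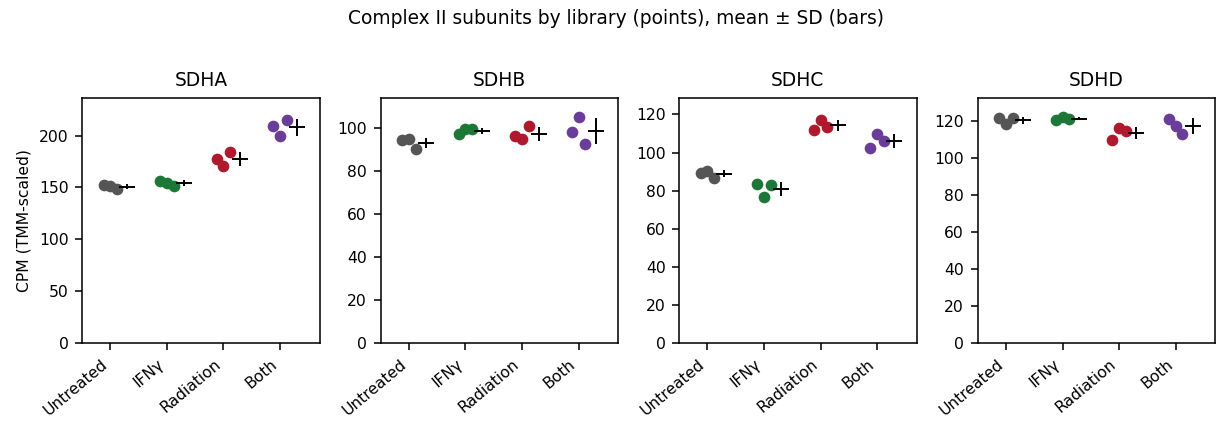
CPM (y axis, from 0) of the 4 complex II subunits in each of 12 libraries by treatment, with mean ± SD beside the points. SDHA rises from about 151 untreated to 208 after both treatments and SDHC is highest after radiation, whereas SDHB and SDHD are called in no comparison.

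In complex I radiation moved accessory subunits in both directions, and no core subunit was called higher against untreated cells. Of the 36, 7 were higher (19.4%) and 4 lower after radiation, against 27.9% and 28.2% of all genes. After both treatments 7 were higher and 1 lower, against 30.9% and 31.2%, and after IFNγ 2 and 2, against 15.0% and 14.1%. The shares of complex I subunits thus lay below those of all genes. The 7 nuclear core subunits include those that carry the flavin and iron-sulfur clusters. After radiation 0 of them were higher and 2 lower, NDUFV2 among them, and of the 29 accessory subunits 7 were higher and 2 lower. After both treatments 0 core subunits were called. At an unadjusted p under 0.05 edgeR gave 0 of the 7 in that comparison, against 7930 of all 12160 genes. DESeq2 called 0, against 54.2% of all genes. Radiation in IFNγ-treated cells called 2 of the 7 higher (28.6%), NDUFS8 and NDUFV1, near the 30.3% of all genes called higher.

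NDUFA9, an accessory subunit at the junction of the membrane and matrix arms, was the subunit most raised by IFNγ. NDUFA9 measured 76.4, 69.7 and 71.1 CPM untreated, 90.2, 90.9 and 86.1 with IFNγ, 69.2, 67.6 and 63.2 after radiation and 85.9, 81.3 and 77.0 after both. Every library given IFNγ lay above every library not given it. IFNγ raised it by 0.30 ± 0.05 in unirradiated cells (adjusted p = 2.55e-06) and by 0.29 ± 0.052 in irradiated cells (adjusted p = 1.03e-05), with an interaction of -0.01 ± 0.072 (adjusted p = 0.963). Radiation gave -0.12 ± 0.053 (adjusted p = 0.0473), a call lost in 11 of 19 alternatives. NDUFA9 exons overlap the models AC005832.4 and AC005833.1 on the same strand, so reads of these cannot be told apart.

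NDUFV3, an accessory subunit of the flavin module, moved the other way. NDUFV3 measured 49.2, 51.7 and 48.9 CPM untreated, 41.5, 42.5 and 43.7 with IFNγ, 65.1, 58.1 and 57.4 after radiation and 48.7, 50.4 and 52.7 after both. The libraries given radiation alone were the highest and those given IFNγ alone the lowest, and the untreated libraries overlapped those given both. NDUFV3 changed by -0.23 ± 0.06 with IFNγ (adjusted p = 0.0022), by 0.27 ± 0.057 with radiation (adjusted p = 5.76e-05) and by 0.02 ± 0.058 with both (adjusted p = 0.779). Within irradiated cells IFNγ gave -0.25 ± 0.057 (adjusted p = 0.000454). All 4 calls of NDUFV3, in the IFNγ and radiation comparisons and in each within the other treatment, held in the alternatives run. Against its neighbour in the flavin module, NDUFV2, the count ratio was 0.50 ± 0.033 (SD, n = 3) untreated and 0.407 ± 0.00975 with IFNγ. It was 0.648 ± 0.0679 after radiation and 0.519 ± 0.0357 after both. Against NDUFV1 of the same module the ratio was 0.613 ± 0.0378 untreated and 0.585 ± 0.0285 with IFNγ. The libraries of these groups overlapped in that ratio, and NDUFV1 was itself called lower with IFNγ. The NDUFV1 ratio was 0.701 ± 0.069 after radiation and 0.618 ± 0.045 after both.

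NDUFA8, an accessory subunit on the intermembrane-space side, measured 36.2, 34.9 and 36.3 CPM untreated, 37.7, 32.0 and 32.2 with IFNγ, 44.3, 48.9 and 44.6 after radiation and 40.6, 40.5 and 43.2 after both. Its libraries given radiation, alone or with IFNγ, lay above all unirradiated ones. The change was 0.36 ± 0.065 after radiation (adjusted p = 4.39e-06) and 0.21 ± 0.066 after both (adjusted p = 0.00457). NDUFA6, an accessory subunit that binds the acyl carrier protein NDUFAB1, fell instead. It measured 36.3, 34.7 and 39.9 CPM untreated, 33.5, 35.2 and 34.8 with IFNγ, 30.5, 32.1 and 31.5 after radiation and 28.9, 26.6 and 30.7 after both. Irradiated and unirradiated libraries did not overlap, and the change was -0.23 ± 0.069 after radiation (adjusted p = 0.003) and -0.36 ± 0.069 after both (adjusted p = 1.01e-05). NDUFAB1, outside the symbol pattern, also fell, with -0.16 ± 0.053 after radiation and -0.22 ± 0.053 after both.

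**Figure D3:**
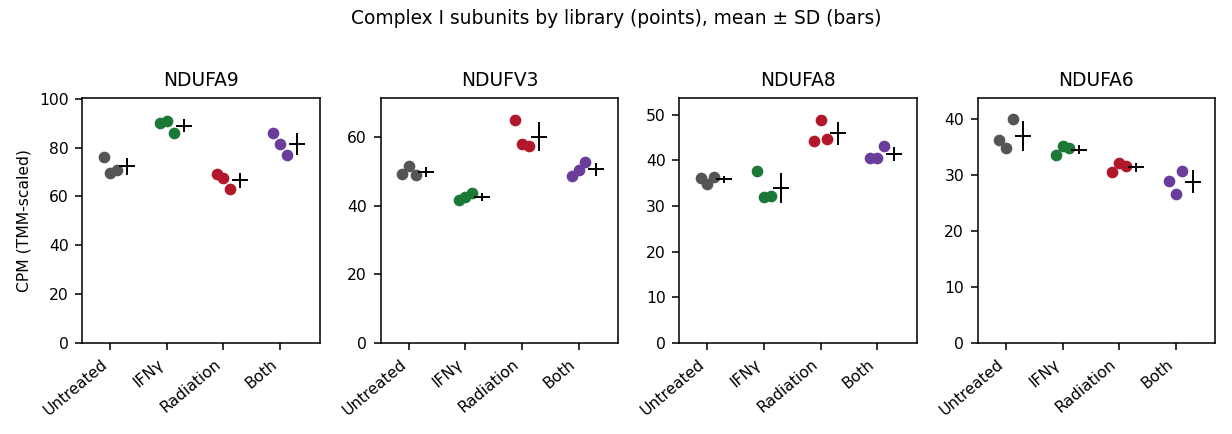
CPM (y axis, from 0) of NDUFA9, NDUFV3, NDUFA8 and NDUFA6 in each of 12 libraries by treatment, with mean ± SD beside the points. NDUFA9 is high in both IFNγ groups, NDUFV3 low with IFNγ alone and high after radiation, NDUFA8 high and NDUFA6 low in both irradiated groups.

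Other complex I subunits changed less. NDUFB5, a membrane-arm accessory subunit, measured 128, 123 and 131 CPM untreated, 143, 147 and 132 with IFNγ, 140.4, 149.6 and 154 after radiation and 158, 151 and 148 after both. All 9 treated libraries exceeded the untreated ones, by 0.15 ± 0.043 with IFNγ, 0.22 ± 0.043 after radiation and 0.26 ± 0.043 after both, each called. The IFNγ call was lost with library totals and without IFNG 2. NDUFA13, also known as the cell death regulator GRIM-19, measured 63.4, 60.0 and 56.6 CPM untreated, 61.8, 59.3 and 61.4 with IFNγ, 74.1, 66.3 and 73.5 after radiation and 68.6, 72.3 and 69.2 after both. It was higher in every irradiated library than in any unirradiated one, by 0.25 ± 0.054 after radiation and 0.22 ± 0.053 after both.

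NDUFS5, an accessory subunit, measured 80.1, 82.4 and 83.9 CPM untreated, 83.0, 86.7 and 78.7 with IFNγ, 93.7, 87.6 and 92.2 after radiation and 81.7, 81.1 and 86.1 after both. It was higher after radiation alone (0.15 ± 0.048) and, among irradiated cells, lower with IFNγ (-0.14 ± 0.047), the second call being lost in DESeq2 and without RT 1, RT 3, combo 1 or combo 2. NDUFA5, another accessory subunit, measured 56.2, 62.5 and 67.5 CPM untreated, 59.8, 61.6 and 71.1 with IFNγ, 57.3, 63.4 and 54.7 after radiation and 56.3, 57.2 and 55.6 after both. The libraries given both lay below those given IFNγ (-0.19 ± 0.064), a call lost without IFNG 3. NDUFS8, a core subunit holding iron-sulfur clusters, measured 42.8, 36.5 and 36.8 CPM untreated, 34.8, 34.8 and 36.5 with IFNγ, 37.8, 37.9 and 42.7 after radiation and 41.1, 42.3 and 42.8 after both. It was called only in combo against IFNG, at 0.25 ± 0.066 (adjusted p = 0.000964), and those 2 groups did not overlap.

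Further called subunits of complex I had log2 changes of at most 0.24 in size. Among them were NDUFA2 (higher in 3 comparisons), NDUFC2 (higher after radiation and after both), NDUFB3 (higher after both), NDUFV2 (lower after radiation), NDUFV1 (lower with IFNγ, higher in combo against IFNG), and, in combo against IFNG alone, NDUFA11, NDUFB1 and NDUFB2 (higher) and NDUFC1 (lower). NDUFV2 at -0.10 ± 0.045 after radiation had an adjusted p of 0.0455 and lost its call in 10 of 19 alternatives. NDUFV1 at -0.16 ± 0.053 with IFNγ lost its call without Untreated 1 and without IFNG 1. In combo against IFNG the calls were lost in 11 of 19 alternatives for NDUFA11, in 8 for NDUFC1, in 6 each for NDUFB1 and NDUFB2 and in 4 for NDUFA2, and without IFNG 3 for each of these but NDUFC1. The NDUFC2 call after both was lost in 6, and that of NDUFA2 in 3. NDUFS1, the largest core subunit and the most counted one of complex I, stood at 148 ± 1.77 CPM untreated and 146 ± 5.95 after radiation and was called nowhere.

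In complex III 6 of 9 subunits (66.7%) were called after radiation, 5 higher and 1 lower, against 56.1% of all genes, and DESeq2 called 5, against 48.3%. After both treatments 3 were higher and 1 lower, against 30.9% and 31.2% of all genes, and after IFNγ 0 and 1, against 15.0% and 14.1%. The radiation share, over 9 genes, was near that of all genes and is read as no result about the complex. Within irradiated cells IFNγ called 0 of 9 by edgeR, against 26.9% of all genes, and 0 by DESeq2, against 19.7%. At an unadjusted p under 0.05 edgeR gave 0 of these, against 4416 of all 12160 genes.

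UQCRFS1, the Rieske iron-sulfur protein, was the only one of the 61 subunits called lower in all 3 treated groups. UQCRFS1 measured 91.6, 82.0 and 90.4 CPM untreated, 82.8, 77.4 and 77.0 with IFNγ, 72.7, 81.6 and 80.0 after radiation and 75.8, 79.4 and 70.7 after both. The lowest untreated library overlapped the highest IFNγ library, and the untreated group lay above both irradiated groups. The change was -0.15 ± 0.052 with IFNγ (adjusted p = 0.0188), -0.17 ± 0.052 after radiation (adjusted p = 0.00422) and -0.22 ± 0.052 after both (adjusted p = 0.000191). The IFNγ call was lost in DESeq2 and without Untreated 1, Untreated 3, IFNG 2 or IFNG 3, and the radiation call without RT 1.

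UQCRB, the ubiquinone-binding subunit, measured 125, 119 and 130.4 CPM untreated, 119, 128 and 122 with IFNγ, 144, 147 and 148 after radiation and 153, 135 and 137 after both. All irradiated libraries exceeded all unirradiated ones, by 0.23 ± 0.044 after radiation (adjusted p = 1.02e-05) and 0.18 ± 0.044 after both (adjusted p = 0.000291). UQCR11, the smallest subunit of the complex, measured 47.5, 43.9 and 40.7 CPM untreated, 43.6, 47.3 and 41.6 with IFNγ, 49.7, 51.5 and 56.4 after radiation and 52.9, 47.3 and 56.0 after both. Radiation gave 0.25 ± 0.065 with no overlap, and both treatments 0.24 ± 0.065 with combo 2 inside the untreated range. UQCRC1, a core protein related to processing peptidases, measured 153, 125 and 139.8 CPM untreated, 140.4, 134 and 132 with IFNγ, 156, 153 and 158 after radiation and 155, 156 and 165 after both. It was higher by 0.16 ± 0.047 after radiation, where RT 2 lay just below Untreated 1, and by 0.19 ± 0.047 after both, and the radiation call was lost without Untreated 2.

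UQCRQ and UQCR10 were higher after radiation, at 0.17 ± 0.062 and 0.13 ± 0.057, and not called after both. The UQCR10 call was lost in 7 of 19 alternatives, DESeq2 and the fits without Untreated 1, Untreated 2, RT 1 or RT 3 among them, and the UQCRQ call without Untreated 2 or RT 3. UQCRC2, the other core protein, stood at 150.0 ± 1.65 CPM untreated and 152 ± 1.94 after radiation and was called nowhere. CYC1, the cytochrome c1 subunit that falls outside the symbol pattern, changed by -0.15 ± 0.047 after radiation. Counts of UQCRH and UQCRHL can share reads, since the copies are alike.

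In complex IV 3 of 12 tested subunits were higher and 0 lower after radiation, and 3 and 0 after both, against 27.9% of all genes higher after radiation and 30.9% after both. IFNγ alone called 0 of 12 by edgeR, against 29.1% of all genes, and 0 by DESeq2, against 21.4%. At an unadjusted p under 0.05 edgeR gave 1 of these, against 4659 of all 12160 genes. COX7A2, the ubiquitous isoform of subunit VIIa, measured 91.6, 82.0 and 87.2 CPM untreated, 96.1, 96.5 and 89.3 with IFNγ, 101, 100.02 and 104 after radiation and 108, 103 and 105 after both. All treated libraries but 1 exceeded the untreated ones, and the irradiated ones did so without overlap. The change was 0.22 ± 0.047 after radiation (adjusted p = 5.04e-05) and 0.27 ± 0.046 after both (adjusted p = 8.03e-07), with 0.11 ± 0.047 after IFNγ (adjusted p = 0.0645).

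NDUFA4 measured 76.5, 64.0 and 70.3 CPM untreated, 68.9, 68.1 and 69.1 with IFNγ, 80.6, 77.5 and 82.6 after radiation and 83.3, 78.6 and 79.9 after both. The irradiated libraries were the highest, by 0.19 ± 0.052 after radiation and 0.20 ± 0.052 after both. COX6A1, the ubiquitous isoform of subunit VIa, measured 107, 89.2 and 95.6 CPM untreated, 103, 101 and 92.5 with IFNγ, 108, 108 and 105 after radiation and 112, 117 and 107 after both. Untreated 1 lay within the range of radiation alone, and the change was 0.14 ± 0.051 after radiation and 0.20 ± 0.05 after both. The radiation call of COX6A1 was lost without Untreated 2, Untreated 3, RT 1 or RT 2.

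COX7A2L, a relative of COX7A2 that links complexes III and IV in supercomplexes, was the only complex IV gene called for IFNγ in irradiated cells. It measured 79.6, 79.9 and 83.5 CPM untreated, 82.3, 76.0 and 79.5 with IFNγ, 84.8, 85.1 and 85.3 after radiation and 79.4, 78.8 and 72.7 after both. The combined libraries lay below those given radiation alone, by -0.14 ± 0.048 (adjusted p = 0.0186), a call lost in DESeq2 and without RT 2, RT 3 or combo 3. COX4I1 measured 226, 225 and 219 CPM untreated, 226, 225 and 214 with IFNγ, 234, 233 and 239 after radiation and 241, 234 and 228 after both. Its values moved by 0.07 ± 0.035 after radiation (adjusted p = 0.0637), and it was called only in combo against IFNG (0.08 ± 0.035), a call lost in 11 of 19 alternatives.

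Summed over their subunits, the nuclear parts of the 4 complexes stood higher after radiation by unequal amounts. Complex I totalled 2103 ± 46.1 CPM (mean ± SD, n = 3) in untreated cells, 2119 ± 58.7 with IFNγ, 2171 ± 16.7 after radiation and 2162 ± 23.3 after both. Complex II totalled 453 ± 5.74 CPM untreated, 455 ± 2.70 with IFNγ, 502 ± 9.74 after radiation and 529 ± 2.83 after both. Complex III totalled 830.1 ± 32.0 CPM untreated, 833 ± 18.5 with IFNγ, 885 ± 9.46 after radiation and 869.5 ± 18.5 after both, and complex IV 1153 ± 51.4 CPM untreated, 1175 ± 51.7 with IFNγ, 1224 ± 11.6 after radiation and 1230.4 ± 17.0 after both. Against untreated means the change after radiation was 3.23% for complex I, 10.9% for complex II, 6.59% for complex III and 6.18% for complex IV, and after both 2.81%, 17.0%, 4.74% and 6.72%. The libraries given radiation alone lay above the untreated ones for complexes II, III and IV, and for complex I Untreated 1 reached the lowest of them. After both, combo 2 lay within the untreated range for complexes I and III. Sums are led by the most counted genes and carry no test.

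The mitochondrially encoded partner subunits were also higher after radiation, with a larger percentage than the nuclear sums. Their 8 tested transcripts were all called higher after radiation (median 0.35) and after both (median 0.30), against 27.9% and 30.9% of all genes. IFNγ called 2 of 8 higher, against 15.0% of all genes. The median SE of the 8 after IFNγ was 0.03, against 0.07 over all genes tested. The 5 ND transcripts counted for complex I together stood higher by 24.3% after radiation. The 2 CO transcripts counted for complex IV stood higher by 18.5%, and MT-CYB of complex III by 29.9%. Not every ND and CO gene of mitochondrial DNA was in the counts, so their sums and ratios do not cover whole complexes. In counts, the ND transcripts stood at 8.24 ± 0.328 (SD, n = 3) times the nuclear complex I subunits in untreated cells, 8.41 ± 0.594 with IFNγ, 9.91 ± 0.0899 after radiation and 9.51 ± 0.118 after both. For complex IV the CO transcripts stood at 12.3 ± 0.658, 12.2 ± 0.813, 13.7 ± 0.187 and 14.1 ± 0.356 times the nuclear subunits. Both ratios were higher in every irradiated library than in any unirradiated one.

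**Figure D4:**
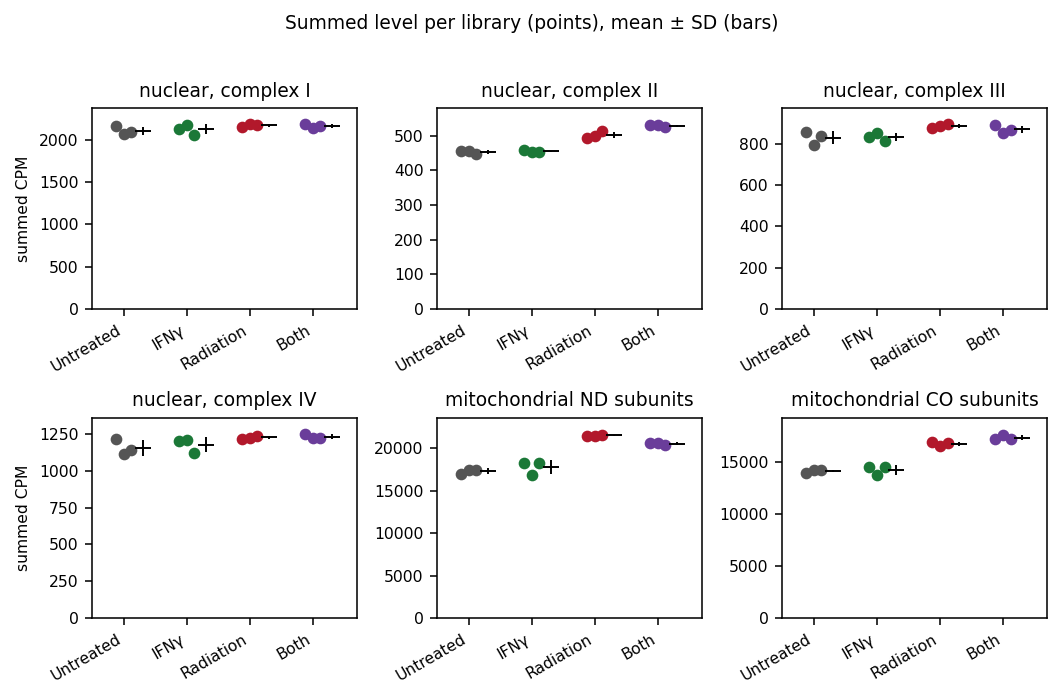
Summed CPM (y axes, from 0) of the nuclear subunits of complexes I to IV and of the 5 ND and 2 CO mitochondrial transcripts counted. Points are the 12 libraries by treatment, with mean ± SD beside them. After radiation complex II gains 10.9% and the ND transcripts 24.3%, against 3.23% for nuclear complex I.

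Genes that build and regulate the chain were more often called lower than higher after radiation, in several lists. The lists were chosen with earlier results of these data known, and their counts stand beside the 27.9% of all genes called higher and 28.2% called lower. Of 54 assembly factors of complexes I to IV, 7 were higher and 21 lower (median -0.13), whereas of the 61 subunits 17 were higher and 5 lower. NDUFAF4, a complex I assembly factor, changed by -0.54 ± 0.075, FASTKD3, a mitochondrial RNA-binding protein, by -0.59 ± 0.086, UQCC3 of complex III assembly by -0.68 ± 0.14 and SDHAF3 of complex II assembly by -0.38 ± 0.10. Among those higher were UQCC1 of complex III assembly (0.47 ± 0.056), TIMMDC1 of complex I assembly (0.29 ± 0.04) and SDHAF2, which helps attach flavin to SDHA (0.21 ± 0.064).

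Of 21 regulators of mitochondrial biogenesis 2 were higher and 16 lower (median -0.23). MYC changed by -1.07 ± 0.068, the coactivator PPARGC1B by -0.65 ± 0.10, and NRF1, whose motif is shown above, by -0.59 ± 0.093. HIF1A was higher, by 0.54 ± 0.036. Of 9 genes listed under mitochondrial proteases and chaperones 0 were higher and 6 lower (median -0.38), among them LONP1 (-0.44 ± 0.039) and HSPA9 (-0.43 ± 0.029). The 6 include DDIT3 (-0.46 ± 0.14), which encodes a transcription factor and is neither a protease nor a chaperone. ATP synthase, the enzyme that uses the gradient, had 2 of 19 genes higher and 4 lower, and the TCA cycle 5 and 4 of 19, with FH, which acts next after succinate dehydrogenase, at -0.47 ± 0.049 and MDH1 at 0.23 ± 0.039.

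**Figure D5:**
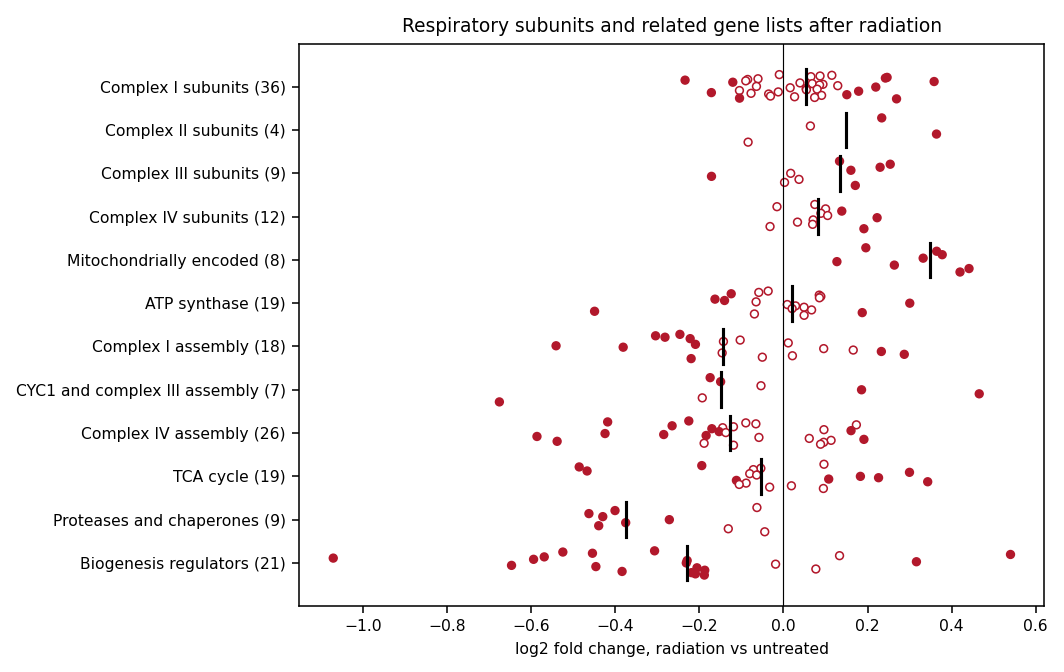
Log2 fold change, radiation against untreated (x axis), of each tested gene in 12 lists, with filled points called at an adjusted p under 0.05, black bars at the medians and the number of genes in parentheses. Medians of the 4 nuclear subunit sets and of the mitochondrially encoded set lie above 0. Those of the assembly lists of complexes I, III and IV, of proteases and of biogenesis regulators lie below 0. The 4 complex II assembly factors (median 0.26) are not drawn.

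After both treatments the same lists gave 7 higher and 19 lower of 54 assembly factors and 2 and 16 of 21 regulators. The protease and chaperone list gave 0 and 7 of 9, with DDIT3 among the lower at -0.65 ± 0.14. These stand against 30.9% of all genes higher and 31.2% lower. With IFNγ alone the assembly factors had 6 higher and 3 lower and the regulators 4 and 2, against 15.0% of all genes higher and 14.1% lower. Among electron carriers, SQRDL, which feeds electrons from sulfide into the quinone pool, was higher with IFNγ by 1.30 ± 0.077 and with both by 1.39 ± 0.076, and GPD2, which feeds in those of glycerol 3-phosphate, changed by 0.23 ± 0.043 with IFNγ and -0.69 ± 0.048 after radiation. SCO2, a copper chaperone of complex IV, was higher with IFNγ by 0.78 ± 0.17, but its exons overlap those of TYMP on the same strand and its counts are uncertain. Of the 68 subunit genes, 31 have exons that overlap another gene in GENCODE v29 (16 on the same strand, 20 on the opposite one) and 33 have named pseudogenes, so small changes in them carry the same uncertainty.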

How the data were processed

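Total RNA was depleted of ribosomal RNA, although the series' design text speaks of mRNA, and sequenced from both ends on an Illumina instrument, per the labels' protocols. Which selection was used bears on how mitochondrial transcripts stand to nuclear ones, and was not settled here. The submitters' processing notes name FastQC 0.11.3, TopHat2 2.0.13, Cufflinks, Cuffdiff 2.2.1 and the build hg19/GRCh37. The authors deposited 1 table of raw read counts per gene. How reads were assigned to genes, with or without strand, and on which gene models is not given in the sources used here. Counts were used as deposited.

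All 12 libraries entered 1 fit of 4 group means in edgeR 4.0.16 (filterByExpr, TMM, robust quasi-likelihood F test, Benjamini-Hochberg over 12160 genes, R 4.3.3, limma 3.58.1), which left 8 residual degrees of freedom. SE was taken as the size of the log2 change over the root of its F statistic. The procedure was also run on simulated counts that held no library deviations of the kind seen in Untreated 1 and IFNG 3. That run cannot speak to such deviations. Library totals ran from 9675126 to 11010656, and the common biological coefficient of variation was 2.71%. CPM used TMM-scaled totals. Alternatives were library totals, DESeq2 1.42.0, no filter, a stricter filter (5 CPM in 3 libraries), only the compared groups, the replicate block, and leaving out each library. Transcript lengths, pseudogene names and exon overlaps came from GENCODE v29.

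The members and lists were chosen with earlier results of these data known. Values per library are given, for each comparison and complex, for the 2 called subunits with the largest change each way whose groups did not overlap and whose mean CPM was at least 5, for subunits called in the interaction, for all of complex II, and for the untested isoforms by counts. From the other lists up to 3 called genes each way could be named. Further subunits named with values (NDUFS8, NDUFV1, NDUFS1, UQCRC2, COX4I1 and the others called) were chosen after their values were seen. Values of 1 complex I subunit are not reported here, although it is included in counts, medians and sums.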

Additional observations from a re-analysis of the deposited data

Results flagged for a closer look

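SDHA was the 1 subunit of 61 called for a difference of its IFNγ effect between irradiated and unirradiated cells, against 2.38% of all genes. At an unadjusted p under 0.05 were 6 of the 61 subunits and 1788 of all 12160 genes. The IFNγ effect was 0.03 ± 0.039 (log2 fold change ± SE) without radiation and 0.23 ± 0.037 with it, a difference of 0.20 ± 0.054 (edgeR's interaction test, adjusted p = 0.0307). All 3 combined libraries lay above all 3 libraries given radiation alone. The call was lost in 7 of 18 alternatives, in DESeq2 and without IFNG 2, IFNG 3, RT 1, RT 2, combo 1 or combo 3. The difference ranged from 0.17 to 0.23 over the alternatives, with an adjusted p of up to 0.137.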

How the results depend on the processing

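Of 76 calls of a subunit in a comparison, 48 held in every alternative run, 28 were lost in at least 1 and 0 changed direction. Leaving out 1 library gave 4 to 8 subunits called for IFNγ, 18 to 24 for radiation, 15 to 25 for both, 4 to 8 for IFNγ in irradiated cells, 18 to 27 for radiation in IFNγ-treated cells and 0 to 1 for the interaction. Over all genes the shares called in these fits were 23.5% to 29.2%, 51.7% to 56.1%, 57.2% to 62.2%, 21.8% to 29%, 55.8% to 61.6% and 1.31% to 2.71% in the same order. DESeq2 called 0 in the interaction, against 1.95% of all genes. Without Untreated 1 and IFNG 3 together, an alternative chosen after seeing the data, IFNγ called 12 and combined treatment 28, against 25.4% and 60.3% of all genes. With library totals in place of TMM the summed level of complex I was 2056 CPM with IFNγ and 2222 after radiation, that of complex II 441 with IFNγ, 514 after radiation and 526 after both, that of complex III 808 and 906, and that of complex IV 1253 after radiation; the cause was not tested beyond the change of scaling.

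Replicate numbers did not pair the libraries: 2 of 18 same-number pairs had a correlation of deviations over 0.1 (median -0.04), and 3 of 12 libraries correlated best with their own number. With the replicate block the subunits called were 6 for IFNγ, 22 for radiation, 18 for both, 6 and 23 for each treatment within the other, and 1 in the interaction. The shares of all genes called were 29%, 56%, 62%, 26.8%, 60.4% and 2.27% in the same order. Log2 changes of about 0.1 were near the limit of these libraries, since the median SE over subunits was 0.05.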
